A study of Homo sapiens with 6 samples.

Results

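DNA glycosylases find damaged or mismatched bases in DNA and cut them from the sugar, which leaves an abasic site. APE1, the product of APEX1, cuts the DNA strand at that site, and a polymerase and a ligase then complete base excision repair. The glycosylases are therefore the enzymes that feed APE1 its substrate, each for its own set of bases. The genes considered were UNG, SMUG1, TDG, MBD4, OGG1, MUTYH, NTHL1, NEIL1, NEIL2 and NEIL3, and a gene was taken as measured where an array row carried its symbol and no other. By this rule 7 of the 10 genes were measured, each by 1 row, among 12448 genes with such a row on the array. NTHL1, NEIL1 and NEIL2 each had 1 row that also carries the symbol of another gene, so no value is given for them.

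All samples come from tet-on derivatives of the human embryonic kidney line HEK293, and puromycin (1 µg per ml) was in every culture. The ubAPE1 line expresses a fusion of ubiquitin to APE1 on addition of doxycycline, the wtAPE1 line expresses wild-type APE1, and the vector line carries the empty pcDNA-FRT vector. Each line was sampled with doxycycline at 2 µg per ml for 16 h (dox+) and without it (dox-), and each of the 6 groups is 1 column of log2 levels that the authors averaged over 3 biological replicates. An average carries no replicate spread, so none could be used. All lines keep their own APEX1 gene, and whether a line is 1 clone is not given in the labels.

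The columns do not share a centre. Over the 11619 rows kept by a filter on low levels, the column medians lay between 6.56 and 6.81 log2. Unless given as deposited, responses and line differences within a doxycycline state therefore have the median difference of all kept rows subtracted (relative to the median row). The limma fit instead used columns centred on their medians. There the median row lay at 0.034 log2 for ubAPE1 minus vector and 0.026 for wtAPE1 minus vector. It lay at -0.0041 for ubAPE1 minus wtAPE1 and 0.018 for doxycycline. All 7 glycosylase rows passed that filter. APEX1 checks the labels. It had 10.58 log2 in ubAPE1 dox+ cells against 9.82 in ubAPE1 dox- cells, 10.67 in wtAPE1 dox+ against 9.50 in wtAPE1 dox- cells, and 9.66 in vector dox+ against 9.54 in vector dox-. Of 6 listed markers of HEK293 and embryonic kidney, 4 were measured: VIM lay between 9.49 and 10.19 log2, NEFL between 8.47 and 9.46, PAX2 between 5.98 and 6.24 and LHX1 between 5.72 and 6.28 in the 6 columns. PAX2 and LHX1 thus lay below every column median. Of 4 measured blood markers, CD3E and HBB lay at or under 4.07 log2, below the filter, while CD8A and CD68 passed it. The APE1 lines differed from the vector line in some of these markers. In the limma fit described below, 3 of 6 kept epithelial and kidney tubule markers were lower in both APE1 lines (EPCAM, KRT19 and LRP2). KRT8, KRT18 and AQP1 did not pass. Of all kept rows, 3.55% were called lower for ubAPE1 and 4.03% for wtAPE1. EPCAM lay between 4.90 and 5.30 log2 in the 4 columns of the APE1 lines and at 8.30 (dox+) and 8.03 (dox-) in the vector line. The neuronal enolase ENO2 was lower by a similar amount (-2.47 for ubAPE1 and -2.36 for wtAPE1), and NEFL was lower too (-0.67 and -0.65, limma adjusted p = 0.0071 and 0.00921). Other markers went the other way. The fibroblast marker COL3A1 was higher (0.64 and 0.74, limma adjusted p = 0.0117 and 0.00161). LHX1 was at 0.53 and 0.57 (limma adjusted p = 0.0619 and 0.0311), and the neuron marker SYN1 at 0.28 and 0.33, not past the test. As deposited, COL3A1 and LHX1 passed in neither line, and NEFL and LRP2 passed for wtAPE1 alone. What part these markers play in the line differences below was not tested.

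Sequences before the start sites were taken from RefSeq (GRCh38.p14), with windows for 6 of the 7 measured genes, all but SMUG1. Shown are the 250 bases before each start of UNG and TDG, which stood highest among the 7 in the wtAPE1 response, and of NEIL3, which stood lowest in the ubAPE1 response. UNG has separate starts for the nuclear enzyme (UNG2, the upstream start) and the mitochondrial one (UNG1). Capitals mark matches, on either strand, to 3 motifs searched by their letters. The first is the GC box, GGGCGG. Next is the CCAAT box, which is named for its letters, and the last is the CHR element, TTTGAA, known from promoters of mitotic genes. No matches in these windows overlap.
UNG, upstream start, chr12:109097347-109097596, plus strand: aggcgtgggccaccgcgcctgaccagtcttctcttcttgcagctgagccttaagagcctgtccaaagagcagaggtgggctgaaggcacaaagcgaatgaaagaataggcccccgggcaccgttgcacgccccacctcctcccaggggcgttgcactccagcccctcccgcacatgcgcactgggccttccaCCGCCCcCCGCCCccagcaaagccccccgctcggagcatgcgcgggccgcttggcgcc
UNG, downstream start, chr12:109097922-109098171, plus strand: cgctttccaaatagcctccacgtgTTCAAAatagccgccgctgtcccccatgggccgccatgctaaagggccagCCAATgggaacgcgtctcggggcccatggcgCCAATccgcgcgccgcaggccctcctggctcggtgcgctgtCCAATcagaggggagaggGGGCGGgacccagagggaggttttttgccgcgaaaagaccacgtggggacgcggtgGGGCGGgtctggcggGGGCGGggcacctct
TDG, chr12:103965622-103965871, plus strand: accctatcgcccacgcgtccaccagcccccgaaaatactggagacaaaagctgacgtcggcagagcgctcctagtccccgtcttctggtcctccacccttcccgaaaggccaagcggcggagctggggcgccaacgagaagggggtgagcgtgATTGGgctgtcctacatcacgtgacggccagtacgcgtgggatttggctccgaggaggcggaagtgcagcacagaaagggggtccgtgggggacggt
NEIL3, chr4:177309624-177309873, plus strand: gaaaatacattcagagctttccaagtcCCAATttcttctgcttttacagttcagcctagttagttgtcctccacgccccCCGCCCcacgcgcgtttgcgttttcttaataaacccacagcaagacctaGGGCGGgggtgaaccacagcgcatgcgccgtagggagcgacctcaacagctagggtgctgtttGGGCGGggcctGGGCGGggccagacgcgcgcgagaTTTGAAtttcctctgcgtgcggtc
The NEIL3 window held 4 GC boxes, 1 CCAAT box and 1 CHR element, the last of these starting 24 bases before the start site. The downstream UNG window held 3 GC boxes, 3 CCAAT boxes and 1 CHR element, and the upstream one held 2 GC boxes alone. TDG had a single CCAAT box and neither of the other motifs. Of 35116 RefSeq windows of the same length, 42.6% held a GC box, 32.0% a CCAAT box and 13.3% a CHR element, so each motif is common and a match describes the letters only.

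The glycosylases of uracil and thymine were described first. UNG removes uracil that was built in during replication or formed from cytosine. It had 8.59 log2 in ubAPE1 dox+, 8.70 in ubAPE1 dox-, 8.65 in wtAPE1 dox+, 8.22 in wtAPE1 dox-, 8.56 in vector dox+ and 8.63 in vector dox- cells. The wtAPE1 dox- column was thus the low one, and the other columns lay close together. SMUG1, a second uracil glycosylase that also takes 5-hydroxymethyluracil, had 6.91 log2 in ubAPE1 dox+, 6.61 in ubAPE1 dox-, 6.89 in wtAPE1 dox+, 6.54 in wtAPE1 dox-, 6.89 in vector dox+ and 6.93 in vector dox- cells. Both uninduced APE1 columns were low for SMUG1, while both induced ones stood near the vector line.

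TDG takes thymine and uracil from mismatches with guanine and removes oxidised forms of 5-methylcytosine in active DNA demethylation. Its level was 8.41 log2 in ubAPE1 dox+, 8.49 in ubAPE1 dox-, 8.67 in wtAPE1 dox+, 8.16 in wtAPE1 dox-, 8.60 in vector dox+ and 8.66 in vector dox- cells. As for UNG, the low column was wtAPE1 dox-. MBD4 binds methylated DNA and takes thymine opposite guanine at CpG sites, and it had 5.64 log2 in ubAPE1 dox+, 6.06 in ubAPE1 dox-, 5.72 in wtAPE1 dox+, 5.47 in wtAPE1 dox-, 5.99 in vector dox+ and 5.92 in vector dox- cells. Its 3 low columns were those of the wtAPE1 line and ubAPE1 dox+.

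The glycosylases of oxidised bases varied less, apart from NEIL3. OGG1, which removes 8-oxoguanine, had 6.40 log2 in ubAPE1 dox+, 6.43 in ubAPE1 dox-, 6.45 in wtAPE1 dox+, 6.45 in wtAPE1 dox-, 6.47 in vector dox+ and 6.47 in vector dox- cells, the narrowest range of the 7 genes. MUTYH takes adenine that was paired with 8-oxoguanine, and had 6.32 log2 in ubAPE1 dox+, 6.30 in ubAPE1 dox-, 6.47 in wtAPE1 dox+, 6.38 in wtAPE1 dox-, 6.39 in vector dox+ and 6.53 in vector dox- cells. NEIL3, which acts on single-stranded DNA and on interstrand crosslinks and is known as a gene of dividing cells, had 6.42 log2 in ubAPE1 dox+, 7.11 in ubAPE1 dox-, 6.74 in wtAPE1 dox+, 6.62 in wtAPE1 dox-, 7.06 in vector dox+ and 7.06 in vector dox- cells. NEIL3 was highest in ubAPE1 dox- and lowest in ubAPE1 dox+, with the wtAPE1 columns in between.

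**Figure D1:**
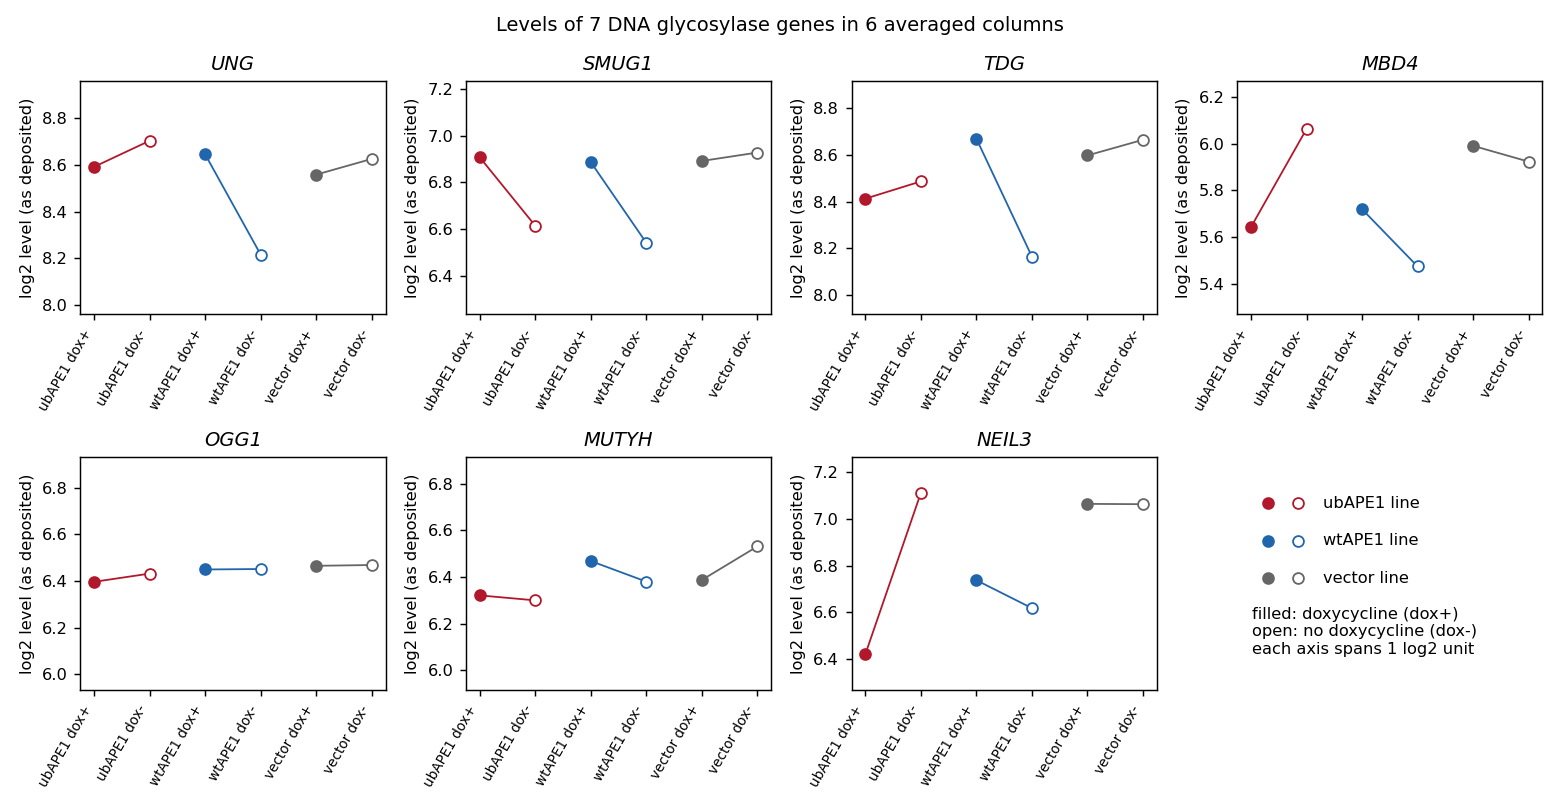
Log2 level, as deposited, of each of the 7 glycosylase genes in the 6 averaged columns; filled points are dox+, open points dox-, a line joins the columns of a cell line, and each axis spans 1 log2 unit. NEIL3 lies at 6.42 in ubAPE1 dox+ against 7.11 in ubAPE1 dox-, and UNG, SMUG1, TDG and MBD4 have their lowest point in wtAPE1 dox-.

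UNG, SMUG1, TDG and MBD4, which are 4 of the 7 genes, had their lowest level in wtAPE1 dox- cells, as did 33.0% of all kept rows. With every column centred on its median, 3 of the 7 were lowest there (UNG, TDG and MBD4), against 18.0% of kept rows, and SMUG1 was lowest in ubAPE1 dox- cells. As a yardstick for the order of single columns, the residual SD of the fit described below, 0.18 log2 pooled over all rows, puts 95% of differences between 2 single columns within 0.49 log2 (1.41-fold). After centring, 1 of the 105 pairs of columns over the 7 genes lay outside it, ubAPE1 dox+ against ubAPE1 dox- for NEIL3, compared with 7.39% of pairs over all kept rows. That pair is the highest and lowest column of NEIL3, so no neighbours in the order of levels passed the limit. The limit comes from how far the lines depart from a shared doxycycline effect, pooled over rows, and not from replicates. It also applies to centred columns, while the levels above are as deposited. Whether neighbouring columns differ beyond replicate spread was therefore not tested.

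The doxycycline response (dox+ minus dox-) was taken within each line as a difference of 2 columns, with no test. No glycosylase reached 1.5-fold (0.58 log2) in the ubAPE1, wtAPE1 or vector response, a size reached by 5.03% of kept rows in the ubAPE1 line (1.21% higher, 3.81% lower), 0.93% in the wtAPE1 line (0.508% higher, 0.422% lower) and 0.947% in the vector line (0.344% higher, 0.602% lower). In the ubAPE1 line NEIL3 was lower by 0.56 log2 (response -0.56, 1.48-fold), and 4.46% of kept rows had a lower response. It was at -0.69 as deposited, which is past 1.5-fold, since the median row of that line was itself lower by 0.13. MBD4 was also lower in that line (-0.29) and SMUG1 was higher (0.42, or 1.34-fold, with 4.97% of rows above it). UNG (0.02), TDG (0.05), OGG1 (0.09) and MUTYH (0.15) lay close to the median row. The median over the 7 genes was 0.05, with 5 of 7 above the median row.

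In the wtAPE1 line the response was highest for TDG (0.43 log2, 1.35-fold), which 2.34% of kept rows exceeded. UNG followed at 0.36 (1.28-fold, 4.56% of rows above it), then SMUG1 at 0.27 and MBD4 at 0.17. MUTYH (0.01), NEIL3 (0.05) and OGG1 (-0.08) stayed near the median row. The 4 genes for uracil and thymine thus stood above the 3 for oxidised bases in this line, with class medians of 0.31 and 0.01. Elsewhere the classes overlapped. In the ubAPE1 line the class medians were 0.04 and 0.09, with ranges of -0.29 to 0.42 and -0.56 to 0.15. In the vector line they were -0.0062 and 0.04, with ranges of -0.02 to 0.11 and -0.10 to 0.05. These classes were set side by side after their values had been seen. The median wtAPE1 response over the 7 genes was 0.17, with 6 of 7 above the median row. Relative to vector and the median row, UNG in wtAPE1 cells stood at 0.15 in dox+ and -0.20 in dox- cells, and TDG at 0.14 and -0.29, so both columns of the wtAPE1 line contribute to these responses. For SMUG1 the values were 0.06 and -0.17.

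In the vector line, which receives the drug but carries the empty vector, the 7 responses lay between -0.10 (MUTYH) and 0.11 (MBD4), with a median of 0.01. All 7 were inside the central range of all kept rows (5th to 95th percentile, -0.32 to 0.30). In the APE1 lines NEIL3 lay outside that range for ubAPE1 (-0.54 to 0.42), TDG and UNG lay outside it for wtAPE1 (-0.30 to 0.34), and SMUG1 lay just past its upper end for ubAPE1.

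**Figure D2:**
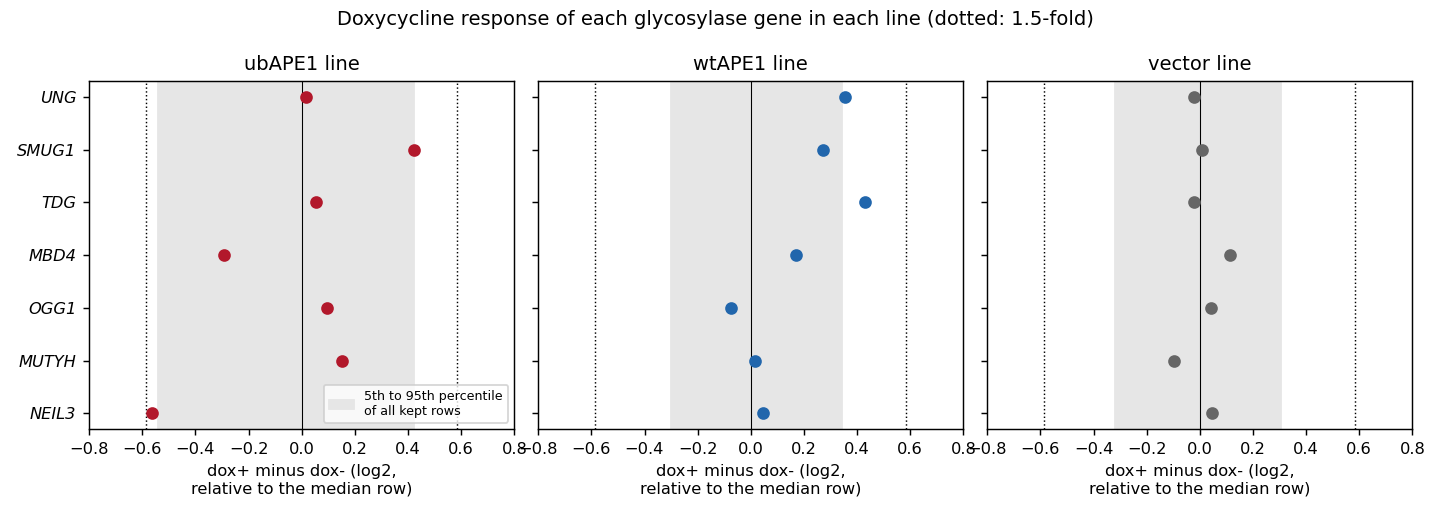
Doxycycline response of each glycosylase gene (log2, dox+ minus dox-, relative to the median row) in the ubAPE1, wtAPE1 and vector lines; the grey band is the 5th to 95th percentile of all kept rows and dotted lines mark 1.5-fold. NEIL3 in the ubAPE1 line (-0.56) and TDG in the wtAPE1 line (0.43) lie farthest out, and no point passes 1.5-fold.

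The responses of the APE1 lines were then set against that of the vector line, again as values, since 1 column a group allows no test of the difference. Both APE1 lines share the vector response. NEIL3 was -0.63 log2 beyond the vector response in the ubAPE1 line and 0.0014 in the wtAPE1 line. For MBD4 the values were -0.43 and 0.06, and for SMUG1 0.39 and 0.27. TDG stood at 0.05 in the ubAPE1 line and 0.46 in the wtAPE1 line, and UNG at 0.02 and 0.38. OGG1 (0.03 and -0.12) and MUTYH (0.23 and 0.12) made up the rest. Over all kept rows the 5th to 95th percentile was -0.74 to 0.53 in the ubAPE1 and -0.41 to 0.48 in the wtAPE1 line, so every one of these 14 values lay inside it. The ubAPE1 response minus the wtAPE1 response was -0.59 for NEIL3, with 7.31% of kept rows lower.

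A doxycycline effect common to the 3 lines and differences between lines over both doxycycline states were tested with limma in an additive fit of line and doxycycline on the centred columns. The fit takes its error from how far the lines depart from a shared doxycycline effect, with 2 residual degrees of freedom. limma's prior degrees of freedom were infinite, so 1 pooled spread is used for every row, and the 7 genes share 1 standard error per comparison. Their own residual SDs lay between 0.08 (OGG1) and 0.23 (NEIL3) log2.

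For doxycycline, 0 of the 7 genes passed an adjusted p of 0.05 (0.0775% of kept rows did, 0.0344% higher and 0.043% lower). An unadjusted p under 0.05 was found for 0 of the 7 and for 296 of 11619 rows. The counts for the 7 were the same with the columns as deposited. There 0 of 11619 rows passed and 194 had an unadjusted p under 0.05. SMUG1 had the largest difference, 0.25 ± 0.15 log2 (SE), with a 95% interval from -0.04 to 0.53 and limma adjusted p = 1.00. Its response was 0.42 in ubAPE1, 0.27 in wtAPE1 and 0.0093 in vector cells. The vector value lay near the median row, with 52.1% of kept rows lower, and was -0.036 as deposited. TDG followed at 0.17 (-0.12 to 0.45) and UNG at 0.13 (-0.15 to 0.42). For NEIL3 it was -0.14 (-0.43 to 0.14), and without the ubAPE1 line it was 0.05. MBD4, OGG1 and MUTYH lay between 0.01 and 0.04. With a half-width of 0.28 log2, or 1.22-fold, these intervals leave room for changes of that order.

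Between the ubAPE1 and vector lines 0 of the 7 genes passed, against 4.64% of kept rows (1.08% higher, 3.55% lower). With the columns as deposited these shares were 1.39%, 0.0861% and 1.31%. NEIL3 was at -0.19 ± 0.18 log2 (SE; 95% interval -0.54 to 0.16, limma adjusted p = 0.722) and UNG at 0.17 (-0.18 to 0.52), while the other 5 lay between -0.07 and 0.06. Between the wtAPE1 and vector lines 0 of the 7 passed as well, against 5.65% of kept rows (1.62% higher, 4.03% lower). As deposited these were 2.11%, 0.103% and 2.01%. NEIL3 was again the lowest, at -0.21 (-0.56 to 0.14, limma adjusted p = 0.514), followed by MBD4 at -0.18 (-0.53 to 0.16). OGG1 (0.16) and MUTYH (0.14) were the highest, but as deposited these were -0.016 and -0.035, so their sign rests on the centring. Between the ubAPE1 and wtAPE1 lines 0 of the 7 and 0.00861% of kept rows passed, and the 7 values lay between -0.18 (MUTYH) and 0.19 (MBD4). The half-width of all these line intervals was 0.35 log2 (1.27-fold). By comparison EPCAM, a gene that does separate the lines, was at -2.95 in the ubAPE1 and -2.98 in the wtAPE1 line relative to vector.

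**Figure D3:**
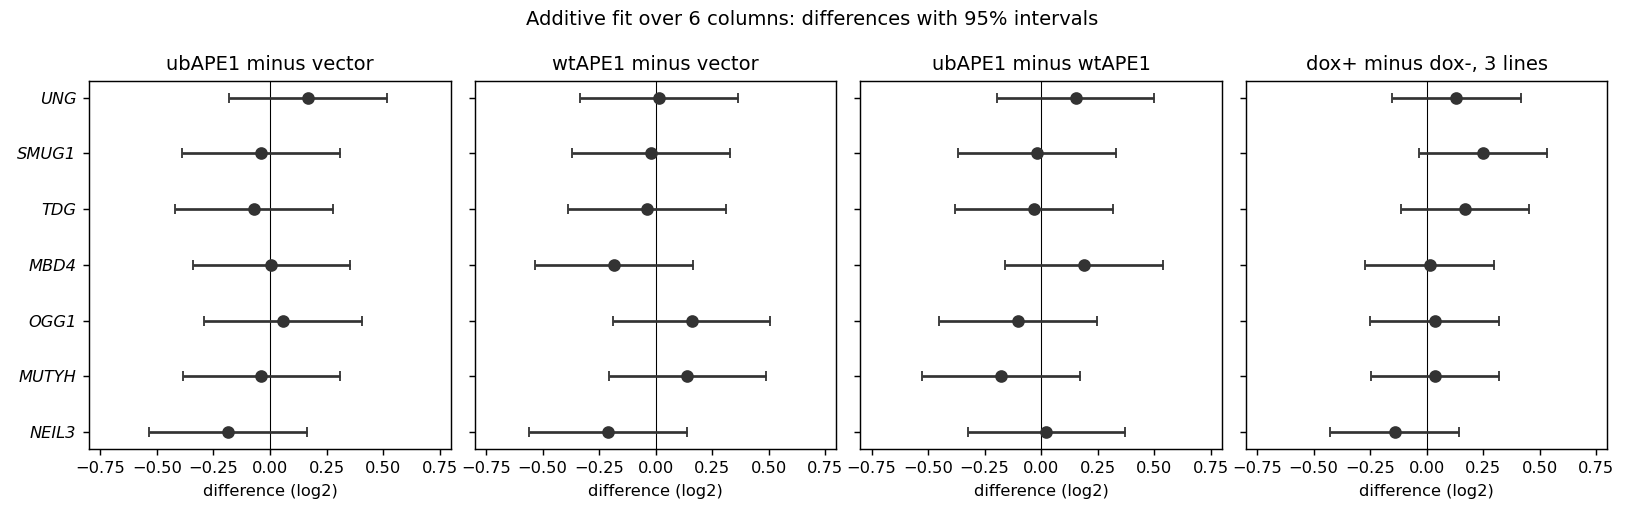
Differences of the 7 glycosylase genes from the additive fit over 6 columns (log2, points) with 95% intervals (bars) for ubAPE1 minus vector, wtAPE1 minus vector, ubAPE1 minus wtAPE1 and dox+ minus dox- over the 3 lines. Every interval includes 0, and SMUG1 in the doxycycline panel comes nearest to excluding it (-0.04 to 0.53).

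Within a doxycycline state, the line differences are again single-column values. In dox+ cells NEIL3 was lower in the ubAPE1 than in the vector line (-0.53 log2, with 10.7% of kept rows lower) and lower than in the wtAPE1 line (-0.27, 6.57% of rows lower). In dox- cells it was at 0.09 in the ubAPE1 line relative to vector, and at -0.23 in the wtAPE1 line. NEIL3 therefore stood below vector in both states of the wtAPE1 line (-0.26 in dox+ and -0.23 in dox- cells) but in dox+ cells alone of the ubAPE1 line. MBD4 of the wtAPE1 line was at -0.21 in dox+ and -0.24 in dox- cells relative to vector. For the ubAPE1 line MBD4 was at -0.24 in dox+ and 0.18 in dox- cells.

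The ubAPE1 response moved with the genomic length of a gene, which the kept rows with 1 symbol show in 20 bins of length. Its median was 0.24 log2 in the shortest bin and -0.14 in the longest, compared with -0.11 and 0.03 for the wtAPE1 line and -0.06 and 0.02 for vector. NEIL3 falls in bin 15, where the median ubAPE1 response was -0.13, and SMUG1 in bin 11, at -0.06. MBD4 falls in bin 5, where the median was 0.13 and MBD4 itself was at -0.29. With the length trend removed, the ubAPE1 response of NEIL3 was -0.41, of MBD4 -0.43 and of SMUG1 0.49, and the wtAPE1 response of TDG was 0.43 and of UNG 0.41. No test of the part of length in these responses was made beyond this removal.

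**Figure D4:**
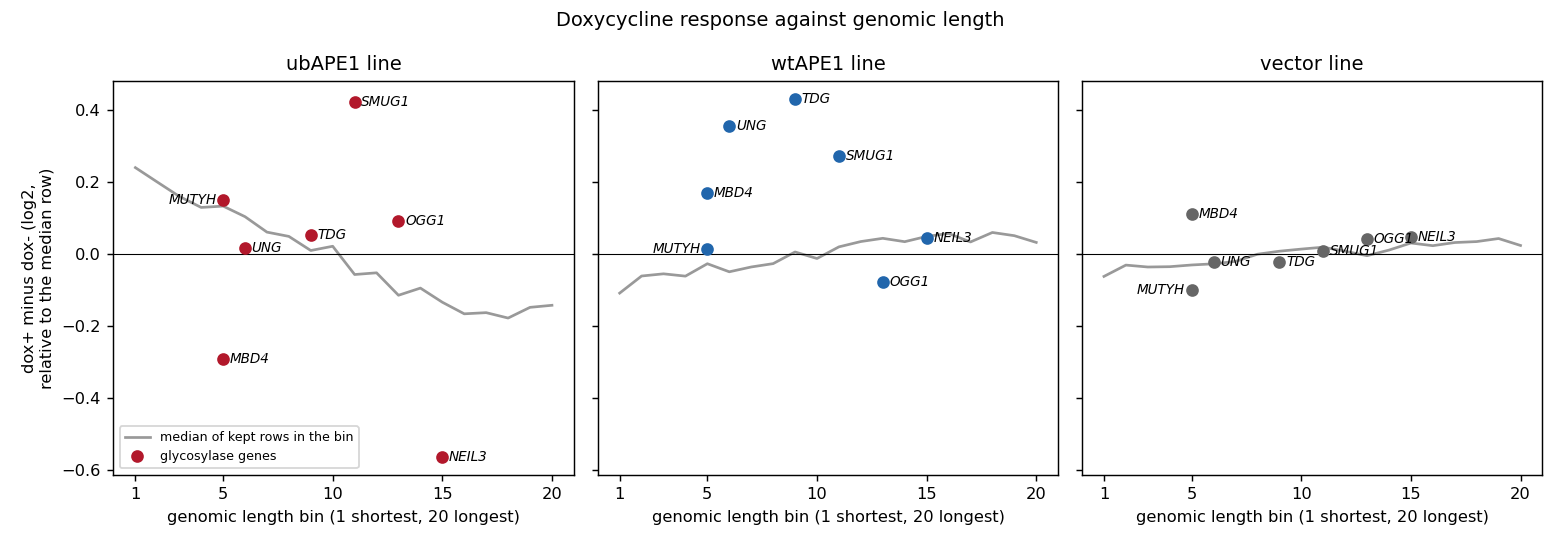
Doxycycline response (log2, relative to the median row) of the 7 glycosylase genes (points) and the median of all kept rows with a known length (grey line) against 20 bins of genomic length, in the ubAPE1, wtAPE1 and vector lines. In the ubAPE1 line the grey line runs between 0.24 in the shortest and -0.18 in bin 18, and NEIL3 (-0.56) and MBD4 (-0.29) lie farthest below it.

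Several glycosylases are known to follow the cell cycle, so genes of replication and mitosis are set beside them. Of 17 measured mitosis genes, 3 were at least 1.5-fold lower in the ubAPE1 response (3.81% of all kept rows were): HMMR (-0.95), which binds spindle microtubules, the checkpoint kinase TTK (-0.84) and the kinetochore gene CENPF (-0.59). The list's median response was -0.24 in the ubAPE1, 0.24 in the wtAPE1 and -0.10 in the vector line. In the additive fit 1 of the 17 passed, HMMR, lower in wtAPE1 than in vector cells (-0.58 ± 0.18 log2, SE, limma adjusted p = 0.0267), beside 4.03% of kept rows called lower there. With the columns as deposited HMMR was at -0.75 (limma adjusted p = 0.195). The mitotic kinase CDK1 was at -0.36 in the ubAPE1, 0.40 in the wtAPE1 and -0.46 in the vector response, where NEIL3 was at -0.56, 0.05 and 0.05. For 15 measured DNA replication genes the medians were -0.12, 0.10 and 0.0090 in the same order of lines, and 0 of them reached 1.5-fold in any response. None passed the test in limma, and the largest line difference was that of GINS1, a subunit of the replicative helicase, at 0.47 in the ubAPE1 line relative to vector (adjusted p = 0.117). The clamp loader subunits had the widest doxycycline responses of the list, RFC4 at -0.50 in ubAPE1 cells and RFC3 at 0.43 in wtAPE1 cells. A different share of cycling cells and a different level per cell cannot be told apart in these bulk samples.

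Of the steps after base removal, 10 of 15 listed genes were measured. In the additive fit APEX1 was higher in the ubAPE1 line than in vector cells (0.71 ± 0.18 log2, SE, limma adjusted p = 0.0029). For wtAPE1 cells the difference was 0.66 ± 0.18 (limma adjusted p = 0.00696), and for dox+ minus dox- cells it was 0.73 ± 0.15 (limma adjusted p = 0.00189). APE1 is what the ubAPE1 and wtAPE1 lines were made to express, while the fit takes a doxycycline effect shared by all lines. As deposited, APEX1 had 10.58 log2 in ubAPE1, 10.67 in wtAPE1 and 9.66 in vector dox+ cells. In dox- cells the levels were 9.82, 9.50 and 9.54. The excess over vector thus lay mostly in dox+ cells, and the fitted APEX1 values average over unlike responses. Whether the row reads the transgene was not tested. APEX2, a second abasic endonuclease of the nucleus and mitochondria, was higher in wtAPE1 than in vector cells (0.59 ± 0.18, limma adjusted p = 0.0222). For ubAPE1 cells its difference was 0.52 (limma adjusted p = 0.0662). None of these calls held with the columns as deposited, where the spread is estimated partly for each row (6.28 prior degrees of freedom). APEX1 was then at 0.60 for ubAPE1, 0.49 for wtAPE1 and 0.68 for doxycycline (limma adjusted p = 0.366, 0.331 and 1.00), and APEX2 at 0.41 for wtAPE1 (adjusted p = 0.243). The other 8 genes (POLB, POLL, LIG1, LIG3, PARP1, PARP2, APTX and TDP1) passed in 0 comparisons, and the list's median response was -0.04 in the ubAPE1, 0.11 in the wtAPE1 and 0.0071 in the vector line. PARP1, which senses strand breaks, was at -0.28, 0.17 and 0.34 in these lines, and the repair polymerase POLB at -0.33, 0.06 and 0.03.

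MPG, the glycosylase of alkylated purines and outside the 10 genes, had a response of 0.29 log2 in the ubAPE1, -0.14 in the wtAPE1 and -0.28 in the vector line and passed in 0 comparisons. Partners of TDG in active demethylation were measured for 5 of 7 listed genes, of which 4 passed the filter and 0 passed the test. The dioxygenase TET1 was at -0.23, 0.30 and -0.17 in the ubAPE1, wtAPE1 and vector lines, and GADD45A, a stress-induced gene, at -0.29 in the ubAPE1 line relative to vector in the additive fit, where the dioxygenase TET3 was at 0.23 in the wtAPE1 line. Genes that clean the nucleotide pool or repair mismatches were measured for 3 of 6 listed. NUDT1, which destroys oxidised guanine nucleotides, was at 0.02, -0.40 and -0.00068 in these responses, the dUTPase DUT at -0.09, -0.15 and 0.15, and the mismatch repair gene MSH6 at -0.28, -0.17 and 0.26, with 0 of 3 past the test.

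The genes with the pattern most like those of the 2 widest members were found over the 6 centred columns by the root mean square difference between row-centred profiles. For NEIL3 these were the zinc finger gene ZNF638 (0.018 log2), the stress kinase gene MAP3K5 (0.020) and TRMT1L (0.026), against a median of 0.24 over 9652 other rows with 1 symbol. ZNF638 had 6.16 log2 in ubAPE1 dox+, 6.89 in ubAPE1 dox-, 6.52 in wtAPE1 dox+, 6.42 in wtAPE1 dox-, 6.84 in vector dox+ and 6.85 in vector dox- cells. It shares with NEIL3 the low ubAPE1 dox+ column and the wtAPE1 columns in between. For SMUG1 the nearest were the ubiquitin ligase gene STUB1 (0.025), ALG3 (0.046), an enzyme of N-glycan assembly, and ATP6AP1 (0.056), a subunit of the vacuolar proton pump, against a median of 0.21. The likeness is over 6 columns only, chosen as the nearest of those rows.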

How the data were processed

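The authors deposited 1 log2 level for each array row and group and, per the labels, averaged 3 biological replicates in each of the 6 columns. That the scale is log2 was inferred from their range. Labelling was the Affymetrix whole-transcript sense target assay, per the labels' protocols, with hg 18 as the genome build per the submitters' processing notes. The sources used here do not give the summarisation or the normalization. Of 15492 rows, 12616 carry 1 gene symbol in the platform annotation, 2031 several and 845 none.

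Rows with a mean at or above the 25th percentile (5.03 log2) were kept (11619). Responses are differences of 2 columns less the median difference over kept rows, with a size rule of 1.5-fold. limma 3.58.1 (R 4.3.3; lmFit, eBayes) fitted line and doxycycline to median-centred columns, and p-values were adjusted by Benjamini-Hochberg across the kept rows (threshold 0.05). The fit was also run on simulated data with independent noise and no doxycycline response that differed between lines. That run therefore does not test this source of error. Precision is limited by the number of columns, 1 per group. Genomic lengths and promoter windows are from RefSeq, GRCh38.p14, and the symbols of array rows are from the platform annotation. The lengths were joined to array rows by gene identifier, and no gene coordinates were joined.

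Members, lists and tests were chosen with earlier results of these data known. The text names every measured glycosylase, APEX1, MPG, and from each pathway list the members past the test (at most 4) or else those with the largest change; for a few further genes named beside them, values had been seen. Alternatives were the row filter, the scaling, a floor, the eBayes prior, the model terms, leaving out a line and a 2-fold rule; removal of the length trend was chosen after seeing the data.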

Additional observations from a re-analysis of the deposited data

Results flagged for a closer look

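The doxycycline response of NEIL3 was flagged for a difference in sign between lines at least 1.5-fold apart. In the wtAPE1 and vector lines the response lay near the median row, and in the vector line it was 0.0014 as deposited. Relative to the median row, the NEIL3 response was -0.56 log2 in the ubAPE1 line and 0.05 in the vector line, a difference of -0.61. Against the wtAPE1 line, where the response was 0.05, the difference was also -0.61. These are plain differences of the responses. With the median difference over all kept rows taken off they are -0.63 and -0.59, as given above. With 1 averaged column per group these differences were not tested. With the length trend removed the NEIL3 response was -0.41 in the ubAPE1, -0.02 in the wtAPE1 and 0.01 in the vector line. The median mitosis response in the ubAPE1 line was -0.24, or -0.32 with the length trend removed, and its part in the NEIL3 value was not tested.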

How the results depend on the processing

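The count of glycosylases past the test was 0 in every comparison that each alternative allowed, with 0.242 as the lowest adjusted p of any of them in limma. Leaving out a line or a model term allowed fewer than the 4 comparisons. MBD4 fell below the 50th percentile filter, so 6 of the 7 were tested there. Of the 7 genes, 1 (NEIL3, ubAPE1 response) was at least 1.5-fold without a row filter and 1 with the columns as deposited, against 0 in the main setting. No paired analysis was possible because the labels give no replicate numbers and each group is 1 averaged column, but the fit does take doxycycline within lines. Each of the 7 genes has 1 row, so an alternative row per gene could not be tried. The number of columns limits the precision, and the cause of the shifts below was not tested.

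Over all rows, the count past the test between wtAPE1 and vector was 656, with 362 under the 50th percentile filter, 245 as deposited and 2296 without the ubAPE1 line. Between ubAPE1 and vector it was 539, with 298 under that filter and 162 as deposited. Between ubAPE1 and wtAPE1 it was 1, with 13 without a filter and 0 under the 50th percentile filter, as deposited, after quantile normalization, with no doxycycline term and with the length trend removed. For doxycycline it was 9, with 16 without a filter, 3 under the 50th percentile filter, 2 after quantile normalization, 4 without the vector line, 4 without the wtAPE1 line and 31 without the ubAPE1 line, and 0 as deposited, with no cell line term and with the length trend removed. Rows at least 1.5-fold in the vector response numbered 110 (268 without a filter, 64 under the 50th percentile filter, 66 with the length trend removed, 7 at 2-fold), in the wtAPE1 response 108 (270 without a filter, 7 at 2-fold) and in the ubAPE1 response 584 (955 without a filter, 303 under the 50th percentile filter, 1039 as deposited, 313 with the length trend removed, 18 at 2-fold).

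The sign turned in 24 of the alternative values of tested differences, none past the test and none over 0.16 log2 in the main setting. In wtAPE1 minus vector these were UNG at -0.0070 without a filter, -0.16 as deposited and -0.084 with the length trend removed, SMUG1 at 0.0086 under the 50th percentile filter and 0.019 with the length trend removed, and OGG1 (-0.016) and MUTYH (-0.035) as deposited. In ubAPE1 minus vector they were MBD4 at -0.10 as deposited, -0.00043 after quantile normalization and -0.058 with the length trend removed, and OGG1 at -0.053 as deposited. In ubAPE1 minus wtAPE1 they were SMUG1 at 0.0029 without a filter and 0.047 as deposited, TDG at 0.033 as deposited and NEIL3 at -0.0055 with the length trend removed. For doxycycline they were MBD4 at -0.036 as deposited, -0.046 without the vector line, -0.061 without the wtAPE1 line and -0.011 with the length trend removed, OGG1 at -0.014 as deposited and -0.014 without the ubAPE1 line, MUTYH at -0.011 as deposited and -0.039 without the ubAPE1 line, and NEIL3 at 0.049 without the ubAPE1 line.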
